A study of Rattus norvegicus with 50 samples.

Results

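Pulmonary surfactant and the cells that make it were followed through 10 genes in the lungs of rats that had inhaled nickel subsulfide (Ni3S2), a nickel mineral that dissolves slowly and is carcinogenic in the rat lung. The genes form a list: the surfactant proteins Sftpc, Sftpb, Sftpa1 and Sftpd, the lamellar body genes Abca3, Lamp3 and Napsa, the transport and lipid genes Slc34a2 and Lpcat1, and the transcription factor gene Etv5. All 10 were measured among 13438 genes that had a probe set with 1 gene symbol, and each is given by its brightest probe set. Male F344 rats, 7 to 8 weeks old on receipt, were exposed to Ni3S2 aerosol at 0 (controls), 0.04, 0.08, 0.15 or 0.60 mg/m3, which is 0, 0.03, 0.06, 0.11 or 0.44 mg of nickel per m3. Rats were exposed 6 hours daily, 5 days per week, for either 1 week or 4 weeks, giving 5 or 20 days of exposure. Each of the 10 groups had 5 arrays with 1 animal on each, chosen for the best RNA among 8 animals, so n = 5 in every group. The labels name no other treatment and no modified gene. Values are log2 intensities, and a difference of 1 is a 2-fold difference.

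Alveolar type 2 cells line the alveoli beside the flat type 1 cells and make surfactant, a film of phospholipid and protein that keeps the air spaces open. The hydrophobic proteins SP-B and SP-C are cut from larger precursors and stored with phospholipid in lamellar bodies, while SP-A and SP-D belong to the collectins, which bind microbes and particles. Fibroblast growth factor signals acting through the receptor FGFR2 help to keep the type 2 state in mice, and ETV5 is one of the transcription factors that answers them there.

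The tissue was dissected from the distal airways and alveoli of the right caudal lobe, so each array read a mixture of cells. Fewer cells of a type and less RNA per cell cannot be told apart in such samples. The genes other than Etv5 were bright, with 50-array means of at least 10.1. Etv5 was of middle brightness, with a mean of 8.01 at percentile 65.1 of all genes. Sftpc had a mean of 13.5 where the highest value of the whole table was 13.8. Changes of Sftpc were therefore measured near the top of the scale. Markers of other lung cells were also bright: the club cell gene Scgb1a1 averaged 13.6 and the type 1 cell gene Ager 11.3 over the 50 arrays.

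The 1-week controls and the 1-week arrays at 0.04 mg/m3 stood apart from the other groups in the table as a whole. The first principal component held 63.5% of the variance, and its mean was 31.3 ± 3.03 (SD) in 4-week controls, against -58.0 ± 12.2 in 1-week controls and -76.5 ± 9.73 at 0.04 mg/m3 for 1 week. The 1-week 0.08 mg/m3 arrays spread between them, at -27.1 ± 26.5. A comparison at 1 week therefore rests on controls that differed widely from the 4-week controls. Many of the 1-week results, though not all, are also given against the 4-week controls.

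The promoters of 4 genes are printed here because their genes moved in opposite directions at the highest concentration: Sftpb and Etv5 were lower, and Sftpa1 and Lamp3 were higher. Each is the reference sequence of RefSeq on rat build GRCr8, from 250 bases before to 50 after the gene's start, and capitals mark matches to a short motif.
Sftpb, chr4:105917338-105917637, + strand: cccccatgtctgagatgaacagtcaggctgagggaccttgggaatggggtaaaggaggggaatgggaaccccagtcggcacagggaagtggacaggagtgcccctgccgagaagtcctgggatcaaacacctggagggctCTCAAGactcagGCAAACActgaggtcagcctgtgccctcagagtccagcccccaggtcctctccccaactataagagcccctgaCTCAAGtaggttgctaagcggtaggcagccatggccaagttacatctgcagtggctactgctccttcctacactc
Etv5, chr11:92113013-92113312, + strand: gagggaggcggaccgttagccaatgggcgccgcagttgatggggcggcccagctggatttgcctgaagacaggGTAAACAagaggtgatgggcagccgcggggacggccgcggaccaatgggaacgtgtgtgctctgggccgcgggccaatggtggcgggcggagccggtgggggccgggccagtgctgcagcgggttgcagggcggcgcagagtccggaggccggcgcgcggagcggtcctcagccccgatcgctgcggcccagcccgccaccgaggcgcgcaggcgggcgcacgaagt
Sftpa1, chr16:17042014-17042313, + strand: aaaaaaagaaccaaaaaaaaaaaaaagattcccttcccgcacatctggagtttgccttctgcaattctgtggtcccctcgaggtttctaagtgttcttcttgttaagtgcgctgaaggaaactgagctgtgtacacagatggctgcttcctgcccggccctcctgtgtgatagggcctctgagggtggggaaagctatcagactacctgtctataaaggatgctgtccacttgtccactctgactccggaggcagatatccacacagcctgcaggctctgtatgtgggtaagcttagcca
Lamp3, chr11:94697772-94698071, + strand: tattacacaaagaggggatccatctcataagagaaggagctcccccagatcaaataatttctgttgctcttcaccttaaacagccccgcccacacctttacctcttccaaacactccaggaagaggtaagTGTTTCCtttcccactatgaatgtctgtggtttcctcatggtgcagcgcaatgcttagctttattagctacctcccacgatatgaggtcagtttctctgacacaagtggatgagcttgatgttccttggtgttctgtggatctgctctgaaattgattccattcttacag
The motifs searched, on both strands, were CTCAAG for the lung factor NKX2-1, TGTTTNC for the forkhead factors and CCGGAA for the ETS factors, to which ETV5 belongs. Sftpb held 2 matches to the NKX2-1 core and 1 to the forkhead core. Etv5 and Lamp3 each held 1 forkhead match, and the Sftpa1 window held none of these letters. Of 27457 promoters of the same length, 15.6% held the NKX2-1 core, 20.8% the forkhead core and 15.8% the ETS core. Among the 7 listed genes with a promoter in the table, 1 held the ETS core, Abca3.

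After 4 weeks at 0.60 mg/m3 the surfactant genes split: 6 of the 10 rose and 2 fell, all by less than 2-fold. Napsa, Lamp3, Lpcat1, Slc34a2, Abca3 and Sftpa1 were higher than in 4-week controls, and Etv5 and Sftpb were lower. In the same comparison 17.4% of all genes were called at an adjusted p under 0.05 by limma, 9.47% higher and 7.90% lower. The exposed and control arrays did not overlap for 8 of the 10 genes, against 19.5% of all genes. The median change of the list was 0.26, against -0.00 over all genes. The count of 8 depended on single arrays: with any 1 of the 10 arrays left out, 3 to 6 of the genes were called. Without exposed array 3 the rises of Sftpa1, Lamp3, Lpcat1, Slc34a2 and Abca3 were no longer called. Napsa was then the only gene called higher, beside the falls of Etv5 and Sftpb.

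**Figure D1:**
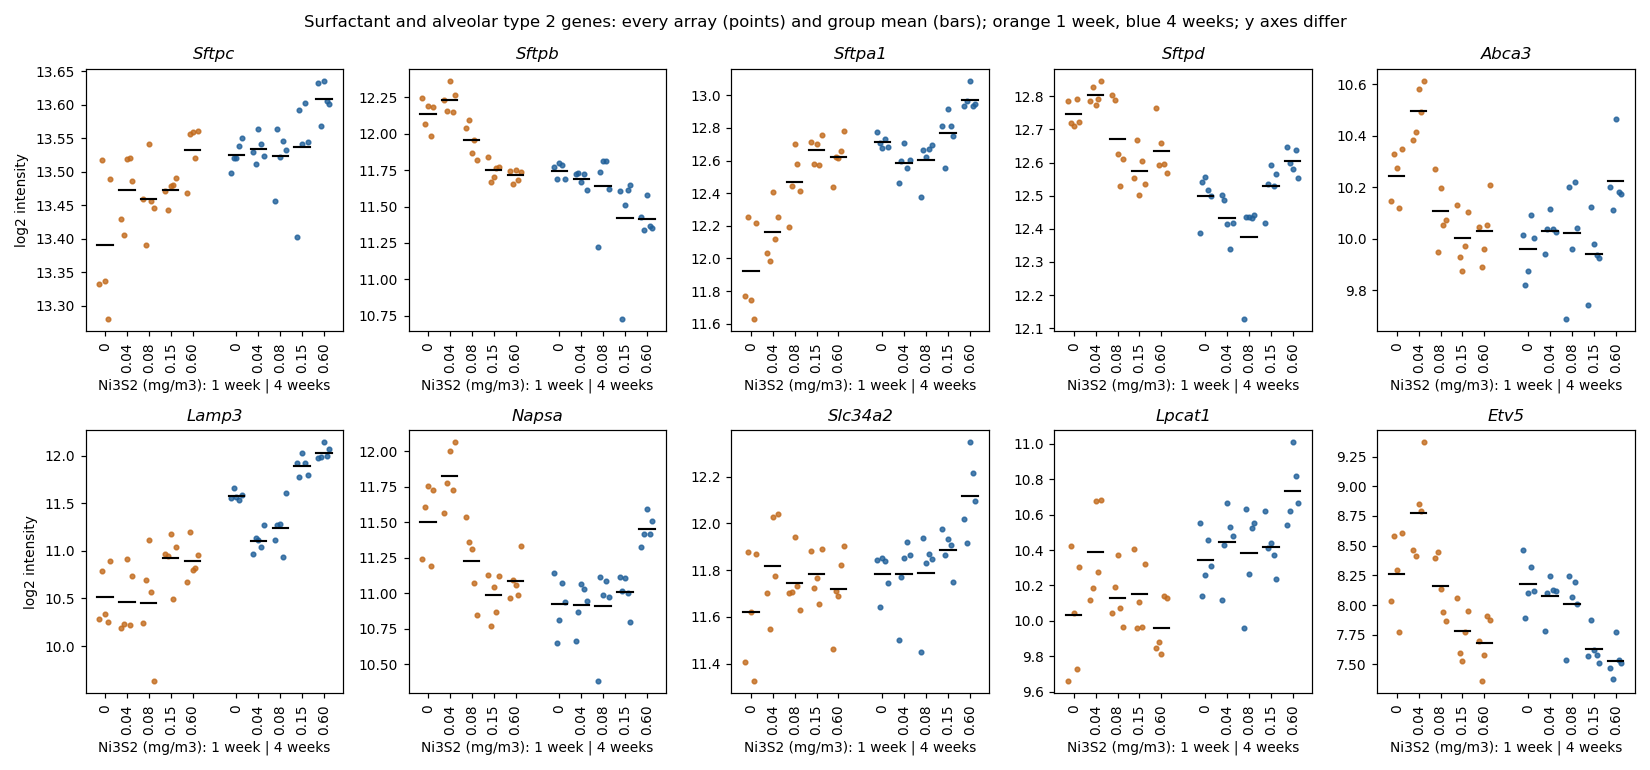
Log2 intensity of the 10 genes on all 50 arrays, by Ni3S2 concentration in mg/m3 at 1 week (orange) and 4 weeks (blue); points are arrays, bars are group means of 5 arrays, and each gene has its own y axis. At 4 weeks Etv5 averaged 7.53 at 0.60 mg/m3 against 8.18 in controls, while Napsa averaged 11.45 against 10.92.

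Sftpb encodes surfactant protein B, which spreads phospholipid into the surface film and is needed to form lamellar bodies. Its log2 intensities were 11.43, 11.34, 11.58, 11.37 and 11.35 at 0.60 mg/m3, against 11.77, 11.69, 11.80, 11.78 and 11.69 in 4-week controls. Every exposed array lay below every control. The gene fell by 0.33 ± 0.10 (SE, limma adjusted p = 0.0187), which is 1.26-fold lower.

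Sftpa1 encodes the main subunit of surfactant protein A, a collectin that binds microbes and surfactant lipid. It read 12.93, 12.96, 13.09, 12.94 and 12.95 at 0.60 mg/m3, against 12.77, 12.71, 12.68, 12.73 and 12.68 in controls. The groups did not overlap, and all exposed arrays lay above the controls by a narrow margin. The change was 0.26 ± 0.09 (limma adjusted p = 0.0492), and with any 1 of the 10 arrays left out it was 0.23 to 0.28 with an adjusted p of 0.0587 to 0.119.

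The other surfactant proteins moved little at 4 weeks. Sftpc, which encodes the small membrane-bound protein SP-C and marks type 2 cells, read 13.63, 13.57, 13.64, 13.61 and 13.60 at 0.60 mg/m3, against 13.50, 13.52, 13.52, 13.54 and 13.55 in controls. These groups did not overlap either, but the difference of 0.08 ± 0.04 did not pass the test (limma adjusted p = 0.214). Sftpd, the gene of the collectin SP-D, averaged 12.60 ± 0.04 (SD) at 0.60 mg/m3 and 12.50 ± 0.07 in controls, a difference of 0.10 ± 0.06 (SE, limma adjusted p = 0.221).

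The 3 lamellar body genes rose together. Napsa encodes napsin A, an aspartic protease that takes part in cutting the SP-B precursor. It read 11.33, 11.42, 11.60, 11.42 and 11.51 at 0.60 mg/m3, against 11.14, 10.65, 10.81, 11.07 and 10.94 in controls, with no overlap. This was the largest rise of the list at 4 weeks, 0.53 ± 0.13 (1.44-fold, limma adjusted p = 0.00196).

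Lamp3 encodes a lysosome-related membrane protein of lamellar bodies that mature dendritic cells also carry. Its values were 11.98, 11.98, 12.14, 11.99 and 12.07 at 0.60 mg/m3, against 11.56, 11.66, 11.56, 11.53 and 11.58 in controls. Arrays within each group lay close together and the groups were well apart. The rise of 0.45 ± 0.16 had a limma adjusted p of 0.0484 in the model of all 50 arrays, which was 0.0599 to 0.0958 with any 1 of the 10 arrays left out. In a model of the 25 arrays of 4 weeks alone, whose spread for this gene was smaller than at 1 week, the adjusted p was 0.000304.

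Abca3 encodes the lipid pump that fills lamellar bodies with phospholipid. It read 10.20, 10.11, 10.46, 10.18 and 10.17 at 0.60 mg/m3, against 10.02, 9.82, 9.87, 10.09 and 10.005 in controls, without overlap. Array 3 of the exposed group was the highest. The rise of 0.26 ± 0.08 (limma adjusted p = 0.0204) was 0.21 with an adjusted p of 0.0973 without that array, and the adjusted p was 0.0689 and 0.0558 without control array 2 or 3.

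Slc34a2, the sodium-phosphate transporter that takes up phosphate at the surface of type 2 cells, rose as well. Its values were 12.02, 11.92, 12.35, 12.22 and 12.10 at 0.60 mg/m3, against 11.84, 11.64, 11.85, 11.84 and 11.74 in controls. The lowest exposed array was above the highest control. The change was 0.34 ± 0.10 (limma adjusted p = 0.0187), with an adjusted p of 0.0754 without exposed array 3 and 0.0575 without control array 2.

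Lpcat1 encodes the acyltransferase that makes the disaturated phosphatidylcholine of surfactant. It read 10.54, 10.62, 11.01, 10.82 and 10.67 at 0.60 mg/m3, against 10.55, 10.14, 10.26, 10.45 and 10.31 in controls, so the groups touched at their edges. The rise was 0.39 ± 0.13 (limma adjusted p = 0.0394). Leaving out 6 of the 10 arrays in turn (exposed arrays 3, 4 and 5 and control arrays 2, 3 and 5) ended the call, with values of 0.32 to 0.40.

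Etv5 fell most. It encodes an ETS transcription factor that lies downstream of fibroblast growth factor signals and is required for type 2 cell identity in mice. Its log2 intensities were 7.47, 7.37, 7.77, 7.54 and 7.51 at 0.60 mg/m3, against 8.46, 7.89, 8.10, 8.32 and 8.12 in 4-week controls. The highest exposed array lay below the lowest control. The gene fell by 0.65 ± 0.16 (1.56-fold lower, limma adjusted p = 0.00204), and it was called with any 1 of the 10 arrays left out, as Napsa and Sftpb were. In the model of the 4-week arrays alone Sftpb had an adjusted p of 0.058. With each array centred on its own median 5 of the 10 genes were called (3 higher and 2 lower), without Sftpa1, Lamp3 and Lpcat1, whose adjusted p was 0.115, 0.0817 and 0.0713.

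Below 0.60 mg/m3 the 4-week exposures left most of these genes near control level. At 0.15 mg/m3, where 3.50% of all genes were called, 1 of the 10 passed the test: Etv5, with values of 7.57, 7.88, 7.62, 7.58 and 7.51. All 5 lay below the control range, although array 2 almost reached it. The fall was 0.55 ± 0.16 (limma adjusted p = 0.0344), and it missed the threshold in 8 of 10 models without 1 array, with a highest adjusted p of 0.122 (without control array 1).

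Sftpb and Lamp3 also did not overlap with the controls at 0.15 mg/m3, where 9.10% of all genes did not. Sftpb read 11.61, 10.72, 11.51, 11.62 and 11.65 there, so array 2 lay far below the rest. The difference from controls was -0.32 ± 0.10 (limma adjusted p = 0.0702), and without array 2 it was -0.15 (limma adjusted p = 0.417). Without array 1, 4 or 5 it passed, with adjusted p values of 0.038 to 0.0488. Lamp3 read 11.92, 11.78, 12.03, 11.92 and 11.79, a difference of 0.31 ± 0.16 (limma adjusted p = 0.401, and 0.0247 in the model of the 4-week arrays alone). The remaining 7 genes differed from controls by -0.02 to 0.10.

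At 0.08 mg/m3 for 4 weeks 0 of the 10 genes were called by limma, against 8.54% of all genes, and 2 of them (Sftpd and Lamp3) had an unadjusted p under 0.05. At 0.04 mg/m3, where 12.9% of all genes were called, Lamp3 alone passed. It was lower there, with 10.97, 11.13, 11.12, 11.04 and 11.28 against 11.56, 11.66, 11.56, 11.53 and 11.58 in controls, with no overlap. The fall of 0.47 ± 0.16 (limma adjusted p = 0.0466) missed the threshold with 9 of the 10 arrays left out in turn, the highest adjusted p being 0.107.

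Muscle and lymphocyte markers differed in the same 0.04 mg/m3 arrays, in a comparison that called 12.9% of all genes. All 9 smooth muscle genes and all 10 heart muscle genes measured were higher, as were 6 of 7 T cell and 4 of 4 B cell genes. The heart muscle list, as a mean of log2 values centred on each gene, ran from 1.55 to 2.12 at 0.04 mg/m3, against -0.93 to 0.30 in 4-week controls. The smooth muscle list ran from 0.22 to 0.74, against -0.71 to -0.47. At 0.08 mg/m3 for 4 weeks the heart muscle list ran from 0.48 to 1.81 and the smooth muscle list from -0.05 to 0.96. The B cell genes Ms4a1, Cd79b, Cr2 and Blk were called higher there too. The T cell list ran from -0.62 to 0.61 there, against -0.55 to -0.21 in controls. Lamp3 averaged 11.24 at 0.08 mg/m3 and 11.58 in controls and was not called. The part of these markers in the Lamp3 values was not tested. The other 9 surfactant genes differed from controls by -0.13 to 0.10 in the 0.04 mg/m3 arrays.

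**Figure D2:**
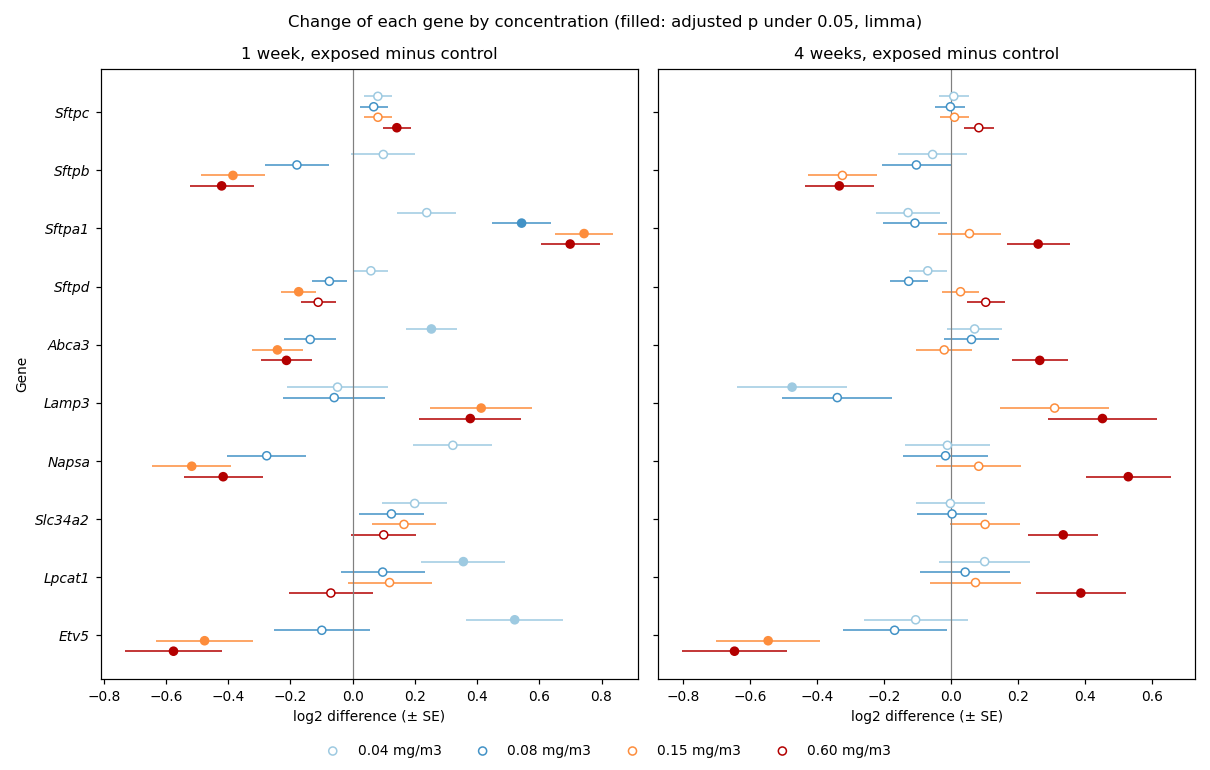
Log2 difference of each gene from the controls of the same time (± SE) at 1 week (left) and 4 weeks (right), by Ni3S2 concentration; filled points have an adjusted p under 0.05 in limma. Etv5 and Sftpb lie left of 0 at 0.15 and 0.60 mg/m3 at both times, while Napsa and Abca3 at 0.60 mg/m3 lie left of 0 at 1 week and right of 0 at 4 weeks.

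Between neighbouring concentrations at 4 weeks the steps differed by gene. From 0.04 to 0.08 mg/m3 0 of the 10 genes were called by limma (0.00744% of all genes, and 0 of the 10 at an unadjusted p under 0.05). Lamp3 was 0.65 ± 0.16 higher at 0.15 than at 0.08 mg/m3 (limma adjusted p = 0.00459), a comparison that called 18.6% of all genes. Sftpd was 0.15 ± 0.06 higher in that step (limma adjusted p = 0.0482), a call lost in 7 of the 10 models without 1 array, with 0.09 and an adjusted p of 0.229 without the lowest 0.08 mg/m3 array, number 1. At 0.60 against 0.15 mg/m3, where 2.87% of all genes were called, Napsa was 0.45 ± 0.13 higher (limma adjusted p = 0.0394) and Abca3 0.29 ± 0.08 higher (limma adjusted p = 0.047). Each of these last calls was lost in 8 of the 10 models without 1 array, and the highest adjusted p was 0.141 for Napsa (without array 5 at 0.15 mg/m3) and 0.222 for Abca3 (without array 3 at 0.60 mg/m3).

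At 1 week the same genes moved in a pattern that was partly the reverse. At 0.60 mg/m3, 3 of the 10 rose and 4 fell, in a comparison that called 65.1% of all genes (32.8% higher, 32.3% lower). Sftpa1, Lamp3 and Sftpc were higher than in 1-week controls, and Etv5, Sftpb, Napsa and Abca3 were lower. At 0.15 mg/m3, which called 67.4% of all genes (33.8% higher, 33.7% lower), 2 rose (Sftpa1 and Lamp3) and 5 fell (Napsa, Etv5, Sftpb, Abca3 and Sftpd). Both shares, 7 of 10, were near that background. With the leading axis of variation within groups, computed from all other genes, as a covariate, 1 of the 10 was called at each of these concentrations. The axis itself differed between groups, with means of -49.8 ± 12.9 (SD) in 1-week controls, 4.51 ± 9.01 at 0.15 mg/m3 and -2.44 ± 5.47 at 0.60 mg/m3. The covariate thus takes up part of the group difference, so the lost calls cannot tell the 2 apart. Against the 4-week controls, 4 of the 10 were called at 0.60 mg/m3 and 2 at 0.15 mg/m3. The shares of all genes called against those controls are not given here.

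Sftpa1 had the largest change at 1 week. It read 12.44, 12.62, 12.61, 12.66 and 12.78 at 0.60 mg/m3, against 11.77, 12.25, 11.75, 11.63 and 12.22 in 1-week controls. The controls fell into a lower set of 3 and an upper set of 2, and all exposed arrays lay above both. The gene rose by 0.70 ± 0.09 (1.62-fold, limma adjusted p = 1.31e-08). It rose by 0.74 ± 0.09 at 0.15 mg/m3 and by 0.54 ± 0.09 at 0.08 mg/m3, where it was the 1 gene of the 10 that was called (48.6% of all genes were). Set against the 4-week controls Sftpa1 was not higher at any of these concentrations, with differences of -0.09 (limma adjusted p = 0.451), -0.047 (0.727) and -0.25 (0.02).

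Sftpb read 11.75, 11.66, 11.75, 11.68 and 11.74 at 0.60 mg/m3 for 1 week, against 12.25, 12.07, 12.19, 11.98 and 12.18 in controls. The groups were clearly apart. It fell by 0.42 ± 0.10 (limma adjusted p = 0.000384) and by 0.39 ± 0.10 at 0.15 mg/m3 (limma adjusted p = 0.00102). Against the 4-week controls Sftpb differed by -0.03 and 0.0046 there and was not called (limma adjusted p = 0.832 and 0.978).

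Etv5 read 7.70, 7.36, 7.58, 7.90 and 7.87 at 0.60 mg/m3 for 1 week, against 8.04, 8.58, 8.30, 7.78 and 8.60 in controls. Control array 4 lay within the exposed range, and the other 4 controls above it. The fall was 0.58 ± 0.16 (limma adjusted p = 0.00113) at 0.60 mg/m3 and 0.48 ± 0.16 (limma adjusted p = 0.00626) at 0.15 mg/m3.

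Napsa and Abca3 were lower at 1 week, the opposite of their direction at 4 weeks. Napsa read 10.97, 11.09, 11.06, 10.99 and 11.33 at 0.60 mg/m3, against 11.24, 11.61, 11.76, 11.19 and 11.72 in 1-week controls, with a fall of 0.42 ± 0.13 (limma adjusted p = 0.00366). The highest exposed array overlapped the lowest 2 controls. Abca3 read 10.05, 9.89, 9.96, 10.05 and 10.21, against 10.15, 10.33, 10.27, 10.12 and 10.35, and fell by 0.21 ± 0.08 (limma adjusted p = 0.0225). That call was lost in 4 models without 1 array (exposed arrays 2 or 3, or control arrays 2 or 5), with a highest adjusted p of 0.0741. Against the 4-week controls Napsa and Abca3 differed by 0.16 and 0.07 at 0.60 mg/m3 (limma adjusted p = 0.3 and 0.519).

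Lamp3 was higher at 0.60 and 0.15 mg/m3 at 1 week, by 0.38 ± 0.16 (limma adjusted p = 0.04) and 0.41 ± 0.16 (limma adjusted p = 0.0238). Its 1-week groups overlapped, with 10.67 to 11.20 at 0.60 mg/m3 and 10.26 to 10.90 in controls. Each call was lost in 5 of the 10 models without 1 array, with a highest adjusted p of 0.125 at 0.60 mg/m3 and 0.0732 at 0.15 mg/m3, both among models without 1-week control arrays 1, 3 or 4 or 2 of the exposed arrays. Against the 4-week controls the direction of Lamp3 turned, to -0.69 (limma adjusted p = 0.000471) at 0.60 mg/m3 and -0.66 (limma adjusted p = 0.00116) at 0.15 mg/m3. With the within-group axis as a covariate it was -0.31 and -0.38 (limma adjusted p = 0.187 and 0.139). Slc34a2 and Lpcat1 did not pass at either concentration, with differences of -0.07 to 0.16.

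At 0.04 mg/m3 for 1 week 3 of the 10 genes were called, all higher, where 26.9% of all genes were called and 15.1% were higher. Etv5 read 8.47, 8.41, 8.85, 8.79 and 9.37, against 8.04, 8.58, 8.30, 7.78 and 8.60 in controls, and rose by 0.52 ± 0.16 (limma adjusted p = 0.0131). Without exposed array 5 or control array 4 the call was lost, with a highest adjusted p of 0.0772. Abca3 rose by 0.25 ± 0.08 (limma adjusted p = 0.0226), with its arrays all above the controls, and Lpcat1 by 0.36 ± 0.13 (limma adjusted p = 0.0456). When 1 array was left out, the call was lost in 3 of 10 models for Abca3 and 6 of 10 for Lpcat1. The highest adjusted p values were 0.0681 and 0.154. Against the 4-week controls 7 of the 10 genes were called at this concentration, 5 higher and 2 lower. The share of all genes called in that comparison is not given here, so the count has no background. The control sets alone differed in 73.5% of all genes. Lpcat1 averaged 10.39 at 0.04 mg/m3 for 1 week, 10.03 in 1-week controls and 10.34 in 4-week controls.

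Markers of other cells moved at 0.60 mg/m3 for 1 week as well, in a comparison that called 32.8% of all genes higher and 32.3% lower. Smooth muscle genes had 8 of 9 lower, with a list mean, centred on each gene, of -0.57 to 0.07 at 0.60 mg/m3 and 0.55 to 1.32 in 1-week controls. Genes of dividing cells had 11 of 11 higher (0.76 to 1.49 against -0.96 to -0.69), neutrophil genes 5 of 7 higher (0.01 to 0.40 against -0.98 to -0.23), and club cell genes 5 of 8 lower (-0.66 to -0.17 against 0.24 to 0.39). Of 8 goblet cell genes 5 rose and 2 fell (0.38 to 0.77 against -0.08 to 0.31). Heart muscle genes had 7 of 10 higher and 0 lower, but the list overlapped between groups (-0.43 to 0.50 against -3.21 to 0.25). Their part in the 1-week values of the surfactant genes was not tested.

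The largest 1-week step lay between 0.04 and 0.08 mg/m3, where 6 of the 10 genes differed, near the 62.9% of all genes that were called. The 1-week arrays at 0.04 mg/m3 were among those that stood apart in the table as a whole. At 0.08 against 0.04 mg/m3 Etv5 fell by 0.62 ± 0.16, Napsa fell by 0.60 ± 0.13, Abca3 fell by 0.39 ± 0.08, Sftpb fell by 0.28 ± 0.10 and Sftpd fell by 0.13 ± 0.06, while Sftpa1 rose by 0.31 ± 0.09. The Sftpd call was lost in 5 of the 10 models without 1 array. The other Sftpb probe set rose by 0.32 in this step (limma adjusted p = 0.00794), and the mean of probe sets differed by 0.022. At 0.15 against 0.08 mg/m3 Etv5 fell by 0.38 ± 0.16 and Lamp3 rose by 0.47 ± 0.16, beside 46.8% of all genes, and the calls were lost in 5 and 3 of the 10 models. Between 0.60 and 0.15 mg/m3 0 of the 10 were called by limma (0.0149% of all genes, and 0 of the 10 at an unadjusted p under 0.05), with differences of -0.19 to 0.10.

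Control lungs themselves differed between the times. Of the 10 genes, 8 differed between 4-week and 1-week controls, 4 higher and 4 lower, in a comparison that called 73.5% of all genes (35.2% higher, 38.2% lower). Lamp3 read 11.56, 11.66, 11.56, 11.53 and 11.58 at 4 weeks, against 10.28, 10.79, 10.33, 10.26 and 10.90 at 1 week, and was 1.07 ± 0.16 higher (2.10-fold, limma adjusted p = 1.31e-07). Sftpa1 was 0.79 ± 0.09 higher, while Napsa fell by 0.58 ± 0.13 and Sftpb by 0.39 ± 0.10. With the within-group axis as a covariate 0 of the 10 were called by limma. That axis averaged -49.8 ± 12.9 (SD) in 1-week controls and 30.2 ± 2.53 in 4-week controls. It therefore takes up much of the difference between the control sets, and this count cannot tell the 2 apart. Etv5 differed by -0.08 ± 0.16 (limma adjusted p = 0.664) and Slc34a2 by 0.16 ± 0.10 (limma adjusted p = 0.151). Markers of other cells differed between the control sets as well. Smooth muscle genes had 7 of 9 lower at 4 weeks, with a list mean of -0.71 to -0.47 in 4-week controls and 0.55 to 1.32 in 1-week controls. General epithelial genes had 2 of 9 higher and 6 lower (-0.47 to -0.14 against 0.19 to 0.43), genes of alveolar injury 1 of 11 higher and 7 lower (-0.42 to -0.26 against 0.08 to 0.25), and T cell genes 5 of 7 lower (-0.55 to -0.21 against -0.30 to 0.58). The dividing cell list (-0.53 to -0.31 against -0.96 to -0.69) and macrophage list (-0.17 to 0.09 against -0.37 to -0.18) were higher. The goblet cell list (-0.88 to -0.26 against -0.08 to 0.31) and B cell list (-0.75 to -0.34 against -0.21 to 1.58) were lower. So was the fibroblast list (-0.31 to -0.03 against 0.03 to 0.21). The type 1, club, ciliated, endothelial, heart muscle and neutrophil lists overlapped. The part of these cells in the differences of the surfactant genes was not tested. Exposure time, age at sampling and any difference in how the 2 sets of arrays were made cannot be told apart.

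When the 1-week arrays were set against the 4-week controls instead, the 1-week falls of Etv5 stayed: -0.50 at 0.60 mg/m3 (limma adjusted p = 0.00679) and -0.40 at 0.15 mg/m3 (limma adjusted p = 0.0351). Most other 1-week changes did not. Of the 10 genes 4 were then called at 0.60 mg/m3 (1 higher and 3 lower) and 2 at 0.15 mg/m3 (both lower). These counts have no share of all genes beside them, so they cannot be set against a background. Sftpa1, Sftpb, Napsa, Abca3 and Sftpc were not among the 4. Sftpc averaged 13.53 at 0.60 mg/m3 for 1 week, 13.39 in 1-week controls and 13.53 in 4-week controls. Lamp3 then differed by -0.69 in place of 0.38 (limma adjusted p = 0.000471). Lpcat1 differed by -0.38 (limma adjusted p = 0.0168) and Sftpd by 0.14 (limma adjusted p = 0.0428), and both were called.

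The change at 4 weeks differed from the change at 1 week for 5 of the 10 genes at 0.60 mg/m3, in a test that called 56.7% of all genes. The share of 5 in 10 was near that background, and each value below carries the difference between the control sets. Napsa had a change 0.95 ± 0.18 greater at 4 weeks (limma adjusted p = 1.73e-05), Abca3 0.48 ± 0.12 greater (limma adjusted p = 0.000558), Lpcat1 0.46 ± 0.19 greater (limma adjusted p = 0.0378) and Sftpd 0.21 ± 0.08 greater (limma adjusted p = 0.0194). For Sftpa1 the difference was -0.44 ± 0.13 (limma adjusted p = 0.00457). The Lpcat1 call was lost in 11 of 20 models without 1 array, with a highest adjusted p of 0.103. For Etv5 and Sftpb the difference between times was -0.07 ± 0.22 and 0.09 ± 0.15 and did not pass, with limma adjusted p values of 0.814 and 0.636.

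**Figure D3:**
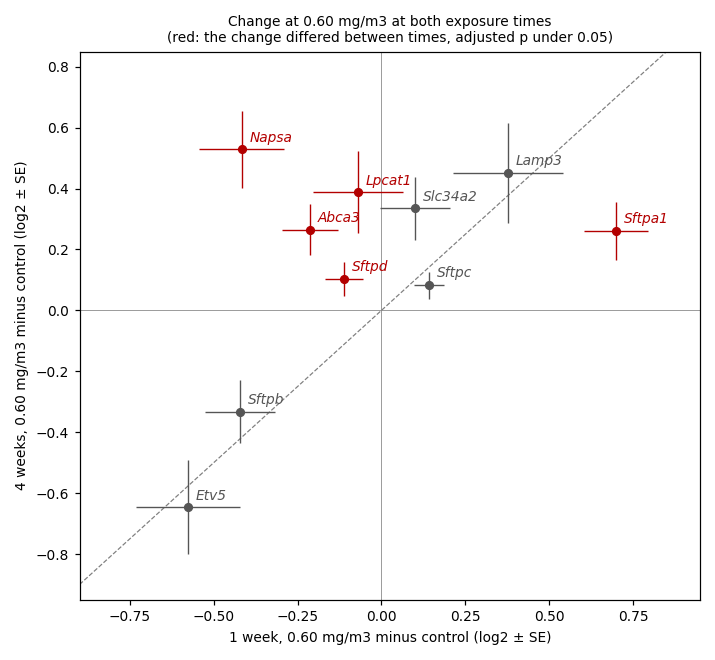
Log2 difference from controls at 0.60 mg/m3 after 1 week (x axis) and 4 weeks (y axis), each ± SE, for the 10 genes; the dashed line marks equal changes and red marks genes whose change differed between the times in limma. Napsa lies at -0.42 and 0.53, Etv5 near the line at -0.58 and -0.65.

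The times differed at 0.15 mg/m3 for 3 of the 10 genes (56.8% of all genes): Sftpa1 by -0.69 ± 0.13, Napsa by 0.60 ± 0.18 and Sftpd by 0.20 ± 0.08. At 0.08 mg/m3 Sftpa1 alone differed, by -0.65 ± 0.13 (44.4% of all genes). At 0.04 mg/m3 0 of the 10 were called by limma (12.0% of all genes), although Etv5 had a difference of -0.63 ± 0.22 with an adjusted p of 0.0529, and 2 genes had an unadjusted p under 0.05. These tests carry the difference between the control sets of the 2 times.

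Across the 10 groups the range of the group means was widest for Lamp3, 1.58 (2.99-fold), and then for Etv5, 1.25 (2.37-fold), and Sftpa1, 1.05 (2.07-fold). It was narrowest for Sftpc, 0.22, and Sftpd, 0.43. The pooled SD within groups ran from 0.05 for Sftpc to 0.27 for Lamp3. The order of the group means differed by gene: Sftpc, Sftpa1, Lamp3, Slc34a2 and Lpcat1 were highest at 0.60 mg/m3 for 4 weeks, while Sftpb and Etv5 were lowest there and highest at 0.04 mg/m3 for 1 week. For Sftpb this peak holds for the brighter probe set only. The other probe set differed by -0.54 from 1-week controls at 0.04 mg/m3 (limma adjusted p = 0.000511). At 4 weeks the neighbours at the low end, 0.04 and 0.08 mg/m3, did not differ beyond their spread for any of the 10 genes.

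Over the 45 pairs of genes, 40 had a positive correlation after the group means were taken out of the 50 arrays, with a median of 0.45 and a highest value of 0.907 for Lpcat1 and Slc34a2. Over the 10 group means 24 of the 45 pairs were positive, from -0.911 for Sftpa1 and Sftpb to 0.963 for Abca3 and Napsa. These are descriptions: all pairs share their arrays and the same RNA.

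Genes whose 10 group means ran most like those of a surfactant gene were looked for among 9574 genes with an SD of group means of at least 0.2. Closest to Napsa was Sfta2 (Pearson r = 0.973), the gene of a small secreted lung protein, and closest to Abca3 was Fndc4 (r = 0.972), which was also among the nearest 3 of Napsa. Closest to Etv5 was Sat2 (r = 0.982), to Sftpa1 Slc6a20a (r = 0.985), to Slc34a2 Apobr (r = 0.956), to Lpcat1 Mfap3l (r = 0.859), to Sftpc Trpc6 (r = 0.908), to Sftpd Uba7 (r = 0.985) and to Lamp3 Pdzd8 (r = 0.99). Closest to Sftpb was Scnn1b (r = 0.996), a subunit of the epithelial sodium channel. For Sftpb 2559 of the 9574 genes passed r = 0.9, for Sftpa1 771, for Lamp3 697 and for Sftpd 290, so likeness to these 4 is common in this table. The number was 102 for Etv5, 59 for Napsa, 47 for Abca3, 6 for Slc34a2, 4 for Sftpc and 0 for Lpcat1.

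Of 17 further type 2 cell genes measured, 10 rose and 2 fell at 0.60 mg/m3 for 4 weeks, with a median change of 0.33, where 9.47% of all genes were higher and 7.90% lower. The largest were Fabp5, a fatty acid binding protein gene (1.03 ± 0.18), Cpm, a membrane carboxypeptidase gene (0.78 ± 0.18), and Egfl6 (0.76 ± 0.20), while Dlk1 fell by 0.63 ± 0.14 (limma adjusted p = 3.67e-05, 0.0019, 0.0044 and 0.000983). Dlk1 had a mean of 3.93 over the 50 arrays, near the dim end of the table. None of the 17 was called by limma at 0.15 mg/m3 (5 at an unadjusted p under 0.05). Macrophages also express Fabp5 and Cd74 of this list, and Ctsh and Fasn stand on lists below as well.

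Genes of surfactant processing and lamellar body traffic had 4 of 14 higher and 1 lower at 0.60 mg/m3 for 4 weeks, against 9.47% and 7.90% of all genes. Gaa, lysosomal alpha-glucosidase, rose by 0.46 ± 0.11, Ap3b1, a subunit of the AP-3 sorting complex, by 0.44 ± 0.11, and Ctsh, a protease that helps to cut the SP-B and SP-C precursors, by 0.39 ± 0.07. Rab38, a small GTPase needed for normal lamellar bodies in rats, fell by 0.41 ± 0.14 (limma adjusted p = 0.0306), a call lost in 7 of the 10 models without 1 array, with adjusted p values up to 0.0954. Of 19 phospholipid and fatty acid synthesis genes 2 rose: Insig1, which restrains sterol synthesis (0.51 ± 0.10), and Fasn, fatty acid synthase (0.33 ± 0.12). The Fasn call was lost in 9 of the 10 models without 1 array, with adjusted p values up to 0.14. The median of that list was 0.03, and its share of 2 in 19 was near the 9.47% of all genes that were higher.

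Genes that regulate surfactant release and clearance had 2 of 12 higher, against 9.47% of all genes. These were the receptors P2ry2 (1.12 ± 0.12), through which extracellular ATP triggers surfactant secretion, and Adora2b (1.04 ± 0.13), an adenosine receptor (limma adjusted p = 1.84e-09 and 4.89e-08). P2ry2 rose at 0.15 mg/m3 as well, by 0.41 ± 0.12 (limma adjusted p = 0.0475), a call lost in 8 of the 10 models without 1 array, with a highest adjusted p of 0.193.

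Of 16 transcription factor genes of the type 2 cell, 1 rose and 3 fell at 0.60 mg/m3 for 4 weeks, with a median of -0.16, against 9.47% higher and 7.90% lower over all genes. In the model of the 4-week arrays alone 2 rose and 5 fell. The share of all genes called in that model is not given here, so these larger counts have no background. Elf3, an epithelial ETS factor, rose by 1.00 ± 0.15, while Foxa1, a forkhead factor of lung epithelium, fell by 0.88 ± 0.15, Elf5 by 0.38 ± 0.10 and Klf5 by 0.34 ± 0.08. Elf3 and Foxa1 were already called at 0.15 mg/m3, at 0.77 ± 0.15 and -0.66 ± 0.15. Nkx2-1 and Foxa2, named here after their values were seen because they drive surfactant genes, differed by 0.10 ± 0.08 and -0.04 ± 0.07 at 0.60 mg/m3 (limma adjusted p = 0.46 and 0.801).

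Of 10 genes of fibroblast growth factor signalling, 4 fell and 0 rose at 0.60 mg/m3 for 4 weeks, against 7.90% of all genes that fell, with a median of -0.19. Dusp6, a phosphatase gene induced by this pathway as a brake on ERK, fell by 0.60 ± 0.09 (limma adjusted p = 2.77e-06). Spry1, another induced inhibitor, fell by 0.52 ± 0.10, Fgfr2, the receptor gene, by 0.34 ± 0.08, and Spry2 by 0.24 ± 0.08. As the mean of its probe sets Fgfr2 differed by -0.15 (limma adjusted p = 0.0559). The Spry2 call was lost in 7 of the 10 models without 1 array, with adjusted p values up to 0.139. Fgf7 and Fgf10, ligands made by stromal cells, differed by 0.13 ± 0.09 and -0.17 ± 0.10 and did not pass, with 50-array means of 3.66 and 3.52 near the dim end of the table. Dusp6 fell at 0.15 mg/m3 too, by 0.44 ± 0.09 (limma adjusted p = 0.00177) and was the 1 gene of the 10 that was called.

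At 1 week and 0.60 mg/m3 the same list had 3 of 10 higher and 3 lower, against 32.8% and 32.3% of all genes. Spry1 fell by 0.84 ± 0.10, Dusp6 by 0.73 ± 0.09 and Etv4, an ETS factor gene of the same subfamily as Etv5, by 0.68 ± 0.12, while Ptpn11, Fgfr2 and Fgf9 rose by 0.74 ± 0.09, 0.41 ± 0.08 and 0.36 ± 0.15. Against the 4-week controls Fgfr2 differed by -0.56 in place of 0.41 and Fgf9 by -0.65 in place of 0.36 (limma adjusted p = 0.000369), while Ptpn11 differed by 0.05 (limma adjusted p = 0.665) and Spry1 by -0.12, and neither was called. The Fgf9 call was lost in 4 of the 10 models without 1 array, with a highest adjusted p of 0.162 (without control array 3). Dusp6 and Etv4 fell against those controls too, by 0.36 and 0.32 on the log2 scale.

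**Figure D4:**
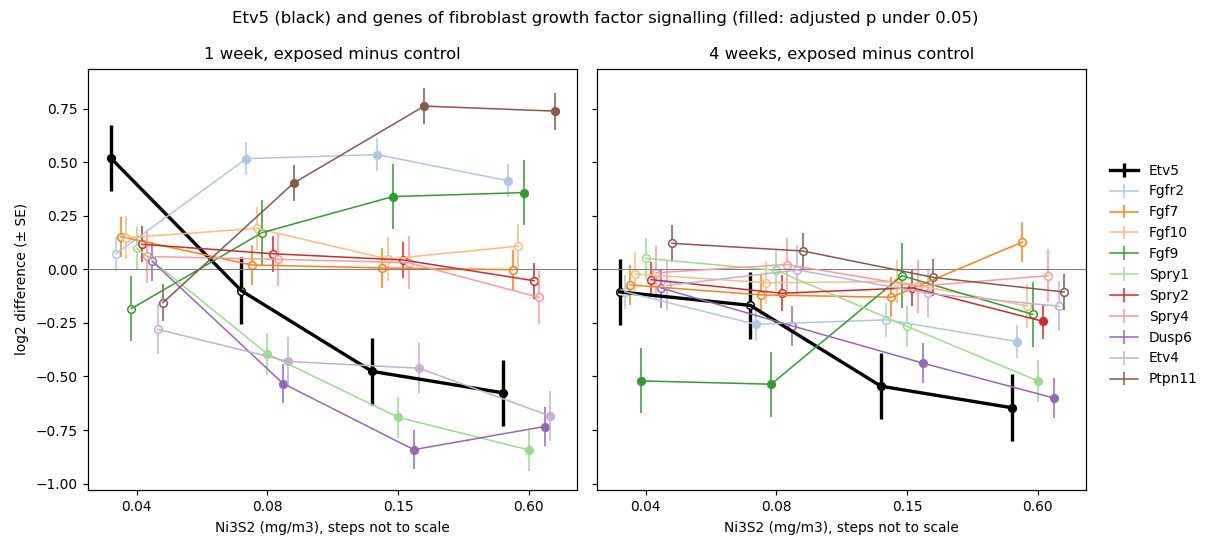
Log2 difference from the controls of the same time (± SE) for Etv5 (black) and 10 genes of fibroblast growth factor signalling, by Ni3S2 concentration at 1 week (left) and 4 weeks (right); filled points have an adjusted p under 0.05 in limma. At 4 weeks Etv5 and Dusp6 lie lowest at 0.60 mg/m3, at -0.65 and -0.60.

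Markers of other cell types moved at 0.60 mg/m3 for 4 weeks as well, where 9.47% of all genes were higher and 7.90% lower. Of 8 club cell genes 7 were lower, of 9 endothelial genes 6 were lower, and of 11 genes of dividing cells 10 were higher. The mean of the endothelial list, centred on each gene, ran from -0.45 to -0.23 at 0.60 mg/m3, against -0.14 to 0.31 in controls, and that of the dividing cell list from 0.28 to 0.80, against -0.53 to -0.31. Genes of type 1 cells had 0 of 11 higher and 1 lower, and general epithelial genes 1 of 9 higher and 0 lower. The general epithelial list ran from -0.22 to -0.13 at 0.60 mg/m3, against -0.47 to -0.14 in controls. The club cell list ran from -0.89 to -0.78, against 0.18 to 0.49. Genes of alveolar injury had 6 of 11 higher and 1 lower, with a list range of 0.20 to 0.57 against -0.42 to -0.26. Goblet cell genes had 5 of 8 higher (-0.05 to 0.24 against -0.88 to -0.26), T cell genes 4 of 7 (-0.15 to 0.63 against -0.55 to -0.21) and neutrophil genes 3 of 7 (0.20 to 0.76 against -0.33 to 0.39). Macrophage genes had 2 of 6 higher, with a list range of 0.15 to 0.39 against -0.17 to 0.09. The part of these cell types in the values of the surfactant genes was not tested.

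Second probe sets were available for 4 of the 10 genes. For Sftpa1 and Abca3 they moved the same way at 0.60 mg/m3, by 0.34 and 0.31 at 4 weeks and by 0.69 and -0.38 at 1 week, all called by limma. For Sftpb the dimmer probe set fell by 0.42 at 4 weeks and 0.79 at 1 week, but at 0.04 mg/m3 for 1 week it fell by 0.54 where the brighter one differed by 0.10. The 2 Sftpb probe sets thus disagree in that group. For Etv5 the other probe set, with a mean of 3.65, was near the dim end of the table and differed by -0.15 at 0.60 mg/m3 for 4 weeks (limma adjusted p = 0.296).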

How the data were processed

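RNA of 50 rat lung samples was measured on Affymetrix HT rat arrays with a 3' IVT kit, from 50 to 150 ng of RNA per the labels. The deposited values are log2 intensities made by the authors with RMA in Partek, per the submitters' processing notes; the sources used here give no versions. Of 31042 probe sets, 19063 had 1 gene symbol, 572 several and 11407 none. The brightest probe set stood for each of 13438 genes. One limma model (R 4.3.3, limma 3.58.1) took all genes at once and estimated 10 group means. Tests were two-sided, adjusted by Benjamini-Hochberg over all genes, and called at an adjusted p under 0.05. Each array is 1 animal, and the number of arrays limits the precision. The genes, lists and tests were chosen with earlier results of these data known. All 10 genes are named; of other lists at most 4 called genes by size. Normalization, filters, probe set choice, model and left-out arrays were varied, and the model was tested on simulated data.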

Additional observations from a re-analysis of the deposited data

Results flagged for a closer look

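One array stood apart from the other 4 of its group in 7 of 100 groups of 5, where chance gives about 1 in 20. At 0.08 mg/m3 for 4 weeks array 1 was the low one for 4 genes. It read 12.4 for Sftpa1 (the others 12.6 to 12.7), 12.1 for Sftpd (others all at 12.4), 10.4 for Napsa (others 10.97 to 11.12) and 11.4 for Slc34a2 (others 11.8 to 11.9). At 0.60 mg/m3 for 4 weeks array 3 was high, at 13.1 for Sftpa1 (others 12.9 to 13.0) and 10.5 for Abca3 (others 10.1 to 10.2). The same array was also the highest of its group for Sftpc, Sftpb, Napsa, Lamp3, Slc34a2, Lpcat1 and Etv5. At 0.15 mg/m3 for 4 weeks array 2 read 10.7 for Sftpb, below the others at 11.5 to 11.6.

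The change against controls differed between 4 weeks and 1 week in 9 of 40 tests by limma. Of all genes, 12.0% were called at 0.04 mg/m3 and 44.4% to 56.8% at the higher concentrations. The surfactant genes were thus not called more often than genes in general. Each value below carries the difference between the control sets. Napsa averaged 10.99 at 0.15 mg/m3 for 1 week and 11.01 for 4 weeks, against 11.50 and 10.92 in the controls. For Sftpa1 the difference was -0.65 at 0.08 mg/m3, -0.69 at 0.15 mg/m3 and -0.44 at 0.60 mg/m3. For Napsa it was 0.60 at 0.15 mg/m3 and 0.95 at 0.60 mg/m3, and for Sftpd 0.20 and 0.21 at the same concentrations. For Abca3 and Lpcat1 it was 0.48 and 0.46 at 0.60 mg/m3.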

How the results depend on the processing

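With 1 array left out, the genes called at 4 weeks numbered 0 to 1 at 0.04 mg/m3, 0 to 0 at 0.08, 0 to 1 at 0.15 and 3 to 6 at 0.60 mg/m3. At 1 week they numbered 0 to 5, 1 to 2, 6 to 8 and 5 to 8, between control sets 7 to 8, and for the difference between times 0 to 2, 1 to 2, 2 to 4 and 4 to 5, in order of concentration. With arrays centred on their median the counts were 5 at 0.60 mg/m3 and 1 at 0.08 mg/m3 at 4 weeks, 2 at 0.08 mg/m3 at 1 week and 2 for the difference at 0.04 mg/m3. Quantile normalization gave 1 at 0.08 mg/m3 at 4 weeks. At 0.04 mg/m3 for 1 week the count was 5 without the dimmest 25% of genes, with an intensity trend or with array weights, 1 with arrays of the same time alone and 0 with the compared arrays alone. At 0.15 mg/m3 for 4 weeks it was 0 with the mean of probe sets, 2 with compared or same-time arrays alone and 3 with array weights. Array weights also gave 6 at 0.08 mg/m3 at 1 week, 2 at 0.04 mg/m3 at 4 weeks, and 2 and 4 for the differences at 0.04 and 0.08 mg/m3. The mean of probe sets gave 2 at 0.08 mg/m3 at 1 week and 1 for the difference at 0.04 mg/m3, and same-time arrays gave 2 at 0.08 mg/m3 at 1 week and 1 at 4 weeks. The within-group axis, which itself differed between groups, gave 2 at 0.08 mg/m3 and 1 each at the higher concentrations at 1 week. It gave 0 and 1 at 0.04 and 0.08 mg/m3 at 4 weeks. For the differences at 0.04 and 0.15 mg/m3 it gave 2 and 1, and between control sets 0. A minimum change of 1.5-fold left 1 call between control sets and 0 in every other comparison that had calls. Against the 4-week controls the counts at 1 week were 7, 4, 2 and 4, with no share of all genes to set beside them.

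Directions reversed, counted where a called value is involved, as follows. With the 4-week controls at 1 week, Sftpa1 was -0.55, -0.25, -0.047 and -0.092 in order of concentration. Sftpd was 0.17, 0.073 and 0.14 from the second concentration upward, and Napsa 0.30, 0.063 and 0.16. At 0.15 and 0.60 mg/m3 Lamp3 was -0.66 and -0.69 and Abca3 0.041 and 0.070, Sftpb was 0.0046 at 0.15 mg/m3, and Fgfr2 was -0.56 and Fgf9 -0.65 at 0.60 mg/m3. With the within-group axis at 1 week, Sftpd was 0.0034 and Lamp3 -0.38 at 0.15 mg/m3, and Lamp3 -0.31 at 0.60 mg/m3. The Lamp3 difference between times at 0.15 mg/m3 was 0.63. Between control sets Sftpd was 0.015, Lamp3 -0.10 and Lpcat1 -0.12, and for 0.08 against 0.04 mg/m3 at 1 week Sftpa1 was -0.022 and Sftpd 0.0016. For Sftpb at 0.04 mg/m3 for 1 week the mean of probe sets gave -0.22 and the other probe set -0.54. For 0.08 against 0.04 mg/m3 they gave 0.022 and 0.32, and the other probe set gave a difference between times of 0.71 at 0.04 mg/m3. The cause was not tested.

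With the replicate number as a block, 129 of 130 values stayed on their side of the threshold and 1 came to pass it. The counts against controls were not moved by over 1.5 times, while between neighbouring concentrations at 4 weeks Abca3 (adjusted p = 0.0536) and Sftpd (0.0576) were no longer called. The numbers do not pair the arrays: over 225 pairs with the same number the correlation of deviations had a median of -0.00706, and 10 of 50 arrays matched their own number best. Arrays give no read depth, and Sftpc lay near the top of the scale.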
